A study of Homo sapiens with 9 samples.

Results

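The genes described here encode the best-known families of general and regulatory splicing factors: the SRSF genes, the HNRNP genes, the SF3A and SF3B genes and the U2AF genes. They were taken by symbol, and 51 of the 25886 symbols in the deposited count table matched: 27 HNRNP, 12 SRSF, 3 SF3A, 6 SF3B and 3 U2AF genes. Another 4 symbols, HNRNPA1P33, HNRNPA1P10, HNRNPKP3 and HNRNPA3P1, were dropped as pseudogene names. All libraries came from HT29, an established human colorectal adenocarcinoma line. The 9 libraries fell into 3 groups of 3: Control, DNMT1 knockdown and DNMT3B knockdown. DNMT1 copies DNA methylation to newly made strands, and DNMT3B can methylate unmarked DNA. Knockdown was stable, from short hairpin RNAs delivered by lentivirus, and all 3 groups, Control included, carry the label of puromycin selection. The labels do not say what vector the Control cells received or how many hairpins were used, so a knockdown and its hairpin cannot be told apart. The stated question is what losing either enzyme does to the transcriptome, because proteasome inhibitors lower both.

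Splicing removes introns in steps that these proteins guide. U2AF2 and U2AF1 read the polypyrimidine tract and the AG at the end of the intron, and the SF3A and SF3B complexes, parts of the U2 small nuclear ribonucleoprotein (snRNP), hold the branch point. SR proteins, encoded by the SRSF genes, mostly bind exonic enhancers and favour inclusion of the exon, while many hnRNP proteins bind silencers or intronic sites and favour skipping. Many genes of both regulatory families control their own mRNA through poison exons that trigger nonsense-mediated decay. The counts here are gene totals, so isoforms and exon inclusion were not analysed.

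The start-site sequences are shown first for 8 members called in the DNMT3B knockdown. The SF3 and U2AF genes among them were chosen because they share a short run of letters. Its absence from the SRSF and HNRNP stretches shown describes those 3 genes, not their families. In windows that reach past the start, SRSF4, SRSF5, HNRNPD, HNRNPF and HNRNPLL also held this run. SF3A3 and SF3B6 held it too, and neither was called with DNMT3B knockdown. SF3B1, which rose with DNMT3B knockdown, did not hold it, and counts by family are given below. Each line is the 250 bases before the RefSeq start (build GRCh38.p14), written along the gene's own strand from 5′ to 3′. In the first 5 lines the capitals mark CCGGAAG, the core bound by ETS-family factors, or its reverse complement CTTCCGG.
SF3A1 (chr22:30356895-30357144, minus strand): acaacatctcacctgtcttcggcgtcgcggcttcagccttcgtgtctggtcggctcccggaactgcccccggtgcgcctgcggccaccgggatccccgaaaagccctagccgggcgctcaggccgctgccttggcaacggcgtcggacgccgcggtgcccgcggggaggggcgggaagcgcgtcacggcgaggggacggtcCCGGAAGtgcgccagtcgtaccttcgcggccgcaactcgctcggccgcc
SF3A2 (chr19:2236574-2236823, plus strand): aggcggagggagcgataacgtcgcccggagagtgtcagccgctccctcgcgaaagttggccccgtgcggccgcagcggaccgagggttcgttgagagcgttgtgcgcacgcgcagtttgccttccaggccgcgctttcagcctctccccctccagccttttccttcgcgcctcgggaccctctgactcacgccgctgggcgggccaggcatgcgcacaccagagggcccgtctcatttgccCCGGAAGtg
SF3B2 (chr11:66052114-66052363, plus strand): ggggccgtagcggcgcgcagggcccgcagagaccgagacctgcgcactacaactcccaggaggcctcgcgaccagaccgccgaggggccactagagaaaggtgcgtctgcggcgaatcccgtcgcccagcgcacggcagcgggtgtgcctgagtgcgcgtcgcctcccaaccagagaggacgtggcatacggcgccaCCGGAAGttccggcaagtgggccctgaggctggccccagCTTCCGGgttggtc
SF3B4 (chr1:149927804-149928053, minus strand): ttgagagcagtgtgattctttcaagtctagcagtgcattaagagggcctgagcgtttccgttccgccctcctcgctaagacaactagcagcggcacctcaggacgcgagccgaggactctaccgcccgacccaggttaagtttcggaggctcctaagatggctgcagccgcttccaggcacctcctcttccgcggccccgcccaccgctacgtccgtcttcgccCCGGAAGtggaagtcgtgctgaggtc
U2AF2 (chr19:55654785-55655034, plus strand): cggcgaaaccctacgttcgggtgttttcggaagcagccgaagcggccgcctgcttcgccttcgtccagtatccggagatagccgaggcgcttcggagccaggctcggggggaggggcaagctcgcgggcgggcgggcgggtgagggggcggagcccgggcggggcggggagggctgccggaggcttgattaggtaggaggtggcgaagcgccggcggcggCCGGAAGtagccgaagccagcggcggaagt
In the next 3 lines the capitals mark CCAAT, the box bound by NF-Y, or its reverse complement ATTGG. These 3 genes fell with DNMT3B knockdown and were shown because they hold this box. It is not a trait of the SRSF family: only 2 of 11 SRSF windows held it, those of SRSF3 and SRSF8.
HNRNPA0 (chr5:137754364-137754613, minus strand): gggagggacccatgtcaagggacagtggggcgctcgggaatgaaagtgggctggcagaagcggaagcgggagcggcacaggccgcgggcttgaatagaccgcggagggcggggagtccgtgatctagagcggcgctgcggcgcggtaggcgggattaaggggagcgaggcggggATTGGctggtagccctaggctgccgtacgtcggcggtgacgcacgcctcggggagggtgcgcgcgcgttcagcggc
SRSF3 (chr6:36594112-36594361, plus strand): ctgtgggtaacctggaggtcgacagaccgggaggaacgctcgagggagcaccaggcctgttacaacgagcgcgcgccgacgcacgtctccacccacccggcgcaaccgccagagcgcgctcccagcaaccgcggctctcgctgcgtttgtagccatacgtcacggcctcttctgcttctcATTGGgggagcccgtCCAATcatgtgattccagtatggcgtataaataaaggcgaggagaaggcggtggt
SRSF8 (chr11:95066627-95066876, plus strand): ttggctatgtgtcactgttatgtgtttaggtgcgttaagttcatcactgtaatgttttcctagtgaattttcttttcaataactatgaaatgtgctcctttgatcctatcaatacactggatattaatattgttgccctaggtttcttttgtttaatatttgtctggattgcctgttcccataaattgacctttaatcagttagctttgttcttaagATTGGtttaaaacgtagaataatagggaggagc
The ETS core began 49 bases before the start in SF3A1, 9 in SF3A2, 26 in SF3B4 and 30 in U2AF2. SF3B2 held it at 53 bases and again, on the other strand, at 14. The CCAAT box lay 76 bases before the start in HNRNPA0, 33 in SRSF8, and at 70 and 55 in SRSF3. SRSF8 stood apart in composition, with 2 CpG dinucleotides and 33.6% G or C in the stretch shown, against 21 to 38 CpG in the other 7.

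Libraries held 18.8 to 33.7 M counts (M is 1e6), and members made up 1.29 to 1.31% of the counts in Control, 1.24% with DNMT1 knockdown and 1.32 to 1.35% with DNMT3B knockdown. Levels are given as CPM, counts per 1e6 of the scaled library, and a count of 0 allows up to 0.0891 to 0.16 CPM, covering counting error only. Whether the replicates came from separate cultures is not labelled, and each p therefore rests on library-to-library spread that could be purely technical. DNMT1 was at 448, 468 and 457 CPM in Control and at 248, 249.7 and 257 CPM in its own knockdown. DNMT3B was at 60.9, 60.4 and 62.6 CPM in Control and at 32.8, 27.9 and 30.8 CPM in its own knockdown. Neither pair of groups overlapped, and for each gene the exact two-sided permutation p was 0.1, the smallest that 3 against 3 libraries can give. Of 11 colorectal epithelial markers 7 passed 1 CPM in each group, with a summed level of 2411 to 2792 CPM over the libraries, while CDX1 was at 0 in Control and DNMT3B knockdown. Of 9 leukocyte markers 1, CD68, passed 1 CPM, and the summed level was 19.1 to 20.1 CPM in Control, 19.3 to 20.5 with DNMT1 knockdown and 31.9 to 37.0 with DNMT3B knockdown. Of 7 stromal markers 2 passed 1 CPM, COL1A1 and ACTA2, with sums of 21.4 to 25.1, 25.5 to 29.8 and 33.6 to 36.2 CPM, and COL1A2 and DCN were at 0 in every library. Of 7 endothelial markers 2 passed 1 CPM, VWF and CLDN5, and the list had sums of 4.95 to 5.68, 4.17 to 5.29 and 5.93 to 6.89 CPM. With DNMT3B knockdown VWF rose from 1.20 ± 0.118 to 2.61 ± 0.398 CPM (SD, n = 3, adjusted p = 3.86e-06). CLDN5 went the other way, from 2.14 ± 0.319 to 1.51 ± 0.142 CPM (adjusted p = 0.0188). The leukocyte, stromal and endothelial sums thus lie above Control in every DNMT3B knockdown library, and the stromal sum in every DNMT1 knockdown library; their part in the results was not tested. In bulk RNA, fewer cells of a type and less RNA per cell cannot be told apart.

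Most members were strongly expressed and moved by small amounts. Of the 51, 46 passed the filter on low counts; the other 5, HNRNPCL1 to HNRNPCL4 and the readthrough HNRNPUL2-BSCL2, had 18 or fewer counts over the 9 libraries. With DNMT1 knockdown 3 of the 46 rose and 18 fell, where 21% of all 16660 tested genes rose, 20.8% fell and 41.8% were called in either direction (edgeR, adjusted p below 0.05). With DNMT3B knockdown 15 rose and 11 fell, beside 23.1% and 24.6% of all genes, or 47.7% in either direction. The median log2 fold change of the members was -0.07 with DNMT1 knockdown and 0.00 with DNMT3B knockdown, and that of all genes was 0.00 in both. High counts make small changes easier to call, so the 38 members at 50 CPM or more were also set beside the 5250 genes at that level. Among those 38, 1 rose and 18 fell with DNMT1 knockdown (23.1% and 31.6% of the 5250, or 54.8% in either direction), and 12 rose and 10 fell with DNMT3B knockdown (26.6% and 34.7%, or 61.4%). The share of members that fell with DNMT1 knockdown was thus above that of genes at 50 CPM or more, and the share that rose was below it. For DNMT3B knockdown both shares lay within 9 percentage points of that background. The cut is a floor, so levels above it were not matched. The libraries of the groups did not overlap for 2 members that were higher and 22 that were lower with DNMT1 knockdown (24.8% and 24.6% of all genes), and for 16 and 13 with DNMT3B knockdown (26.6% and 27.6%).

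**Figure D1:**
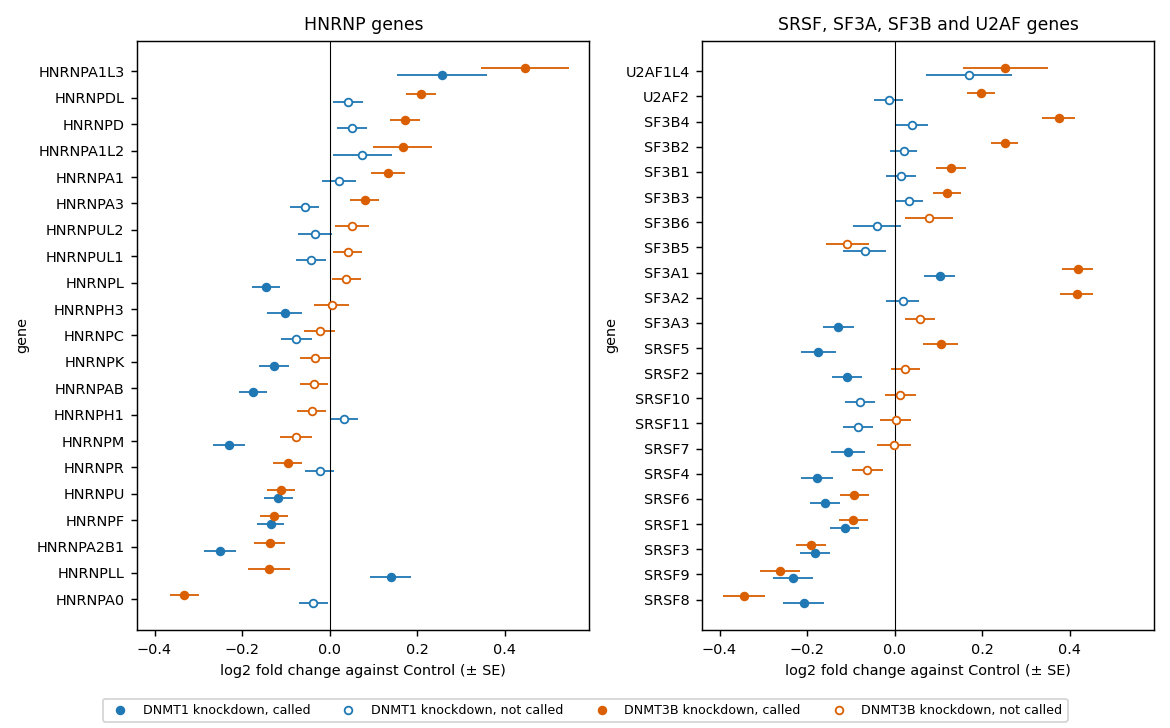
Log2 fold change against Control (horizontal axis, ± SE) for 43 of the 46 tested members, with filled points for adjusted p below 0.05 and open points otherwise; HNRNPH2, SRSF12 and U2AF1, all under 2 CPM, are left out for scale. SF3A1, SF3A2 and SF3B4 lie between 0.37 and 0.42 with DNMT3B knockdown, and SRSF8, HNRNPA0 and SRSF9 between -0.34 and -0.26.

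Calls by family are given as counts, and no difference between families was tested. Of all genes tested, 21% rose and 20.8% fell with DNMT1 knockdown (41.8% in either direction). With DNMT3B knockdown 23.1% rose and 24.6% fell (47.7% in either direction). The SRSF genes made up 9 of the 18 falls with DNMT1 knockdown, and no SF3B or U2AF gene was called there. With DNMT3B knockdown 8 of the 12 SF3A, SF3B and U2AF genes rose and none fell, and of the 12 SRSF genes 1 rose and 5 fell. Taking both knockdowns together, 8 members fell in both (SRSF1, SRSF3, SRSF6, SRSF8, SRSF9, HNRNPA2B1, HNRNPF and HNRNPU) and 2 rose in both (SF3A1 and HNRNPA1L3). The DNMT1 knockdown calls of SF3A1 and HNRNPA1L3 were each lost in some fits that left out a library. SRSF5 fell with DNMT1 knockdown and rose with DNMT3B knockdown, HNRNPLL did the opposite, and 11 members were called in neither. The shares of all genes called in both knockdowns, or in neither, were not computed, so these joint counts have no background beside them. Both comparisons share the same 3 Control libraries, so a deviating Control value enters both.

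The SF3A complex is a trimer of SF3A1, SF3A2 and SF3A3 that joins the U2 snRNP. SF3A1 (chromosome 22, 30331988 to 30356894, GRCh38) was at 336, 355 and 342 CPM in Control, 358, 367 and 384 with DNMT1 knockdown, and 477, 451 and 452 with DNMT3B knockdown. All 3 groups were separate, with the DNMT3B knockdown libraries highest. The gene rose to 134% of Control with DNMT3B knockdown (log2 fold change 0.42 ± 0.035, SE, adjusted p = 1.66e-11). With DNMT1 knockdown it rose to 107% (adjusted p = 0.0179), a call lost without Control replicate 1 (adjusted p = 0.0873), Control replicate 3 (0.0569) or DNMT1 knockdown replicate 3 (0.135). SF3A2 (chromosome 19, 2236824 to 2248655) was at 204, 225 and 219 CPM in Control, 209, 219.9 and 226 with DNMT1 knockdown, and 292, 275 and 295 with DNMT3B knockdown. Control and DNMT1 knockdown libraries of SF3A2 overlapped, and every DNMT3B knockdown library was above both (133% of Control, log2 fold change 0.42 ± 0.038, adjusted p = 1.16e-10). PLEKHJ1, whose exons overlap 20.3% of those of SF3A2, fell with DNMT3B knockdown (log2 fold change -0.23, adjusted p = 0.0021). SF3A3 behaved otherwise. It was at 154, 152 and 159 CPM in Control, 144, 136 and 145 with DNMT1 knockdown, and 158, 163 and 163 with DNMT3B knockdown. With DNMT1 knockdown SF3A3 fell to 91.5% of Control (adjusted p = 0.00353; 0.0502 without DNMT1 knockdown replicate 2), and its DNMT3B knockdown libraries overlapped Control (log2 fold change 0.06, adjusted p = 0.178). As a share of all counts, the 3 genes took 0.0690 to 0.0731% in Control and 0.0879 to 0.0934% with DNMT3B knockdown.

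SF3B is the larger U2 complex that grips the branch point, and SF3B1 is its scaffold and a frequent target of cancer mutations and of splicing inhibitors. SF3B4 (chromosome 1, 149923317 to 149927803), which contacts RNA next to the branch point, had the largest rise of the complex with DNMT3B knockdown. Its levels were 195, 199 and 195 CPM in Control, 191, 199.7 and 215 with DNMT1 knockdown, and 258, 246 and 258 with DNMT3B knockdown (129.5% of Control, log2 fold change 0.37 ± 0.037, adjusted p = 6.07e-10). SF3B2, which contacts RNA near the branch site, was at 443, 460.2 and 453 CPM in Control, 454, 460.2 and 460.3 with DNMT1 knockdown, and 548, 533 and 532 with DNMT3B knockdown. It rose to 119% of Control (log2 fold change 0.25 ± 0.032, adjusted p = 8.62e-08). For both genes the DNMT3B knockdown libraries lay above all others, and the DNMT1 knockdown libraries overlapped Control.

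SF3B1 and SF3B3 moved less. SF3B1 was at 504, 506 and 479.5 CPM in Control, 512, 492 and 499 with DNMT1 knockdown, and 537, 564 and 527 with DNMT3B knockdown (109% of Control, log2 fold change 0.13 ± 0.034, adjusted p = 0.00227). SF3B3 was at 492, 486 and 486 CPM in Control, 505, 502 and 491 with DNMT1 knockdown, and 538, 536 and 517 with DNMT3B knockdown (109%, log2 fold change 0.12 ± 0.032, adjusted p = 0.00232). Both were separate from Control in every DNMT3B knockdown library. The small subunits SF3B5 and SF3B6 were not called in any comparison. SF3B5 was at 60.6, 54.3 and 55.3 CPM in Control, 57.6, 51.5 and 53.3 with DNMT1 knockdown, and 49.5, 55.8 and 53.2 with DNMT3B knockdown (adjusted p = 0.274 and 0.0728). SF3B6 was at 45.1, 41.6 and 42.9 CPM in Control, 44.3, 40.3 and 41.5 with DNMT1 knockdown, and 40.5, 48.6 and 48.2 with DNMT3B knockdown. DNMT3B knockdown replicate 1 was the lowest of its group for both genes, and without it the SF3B6 log2 fold change against Control was 0.16 (adjusted p = 0.00912). SF3B5 came below the threshold against Control without Control replicate 2 (adjusted p = 0.0385) or DNMT3B knockdown replicate 2 (0.0286).

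**Figure D2:**
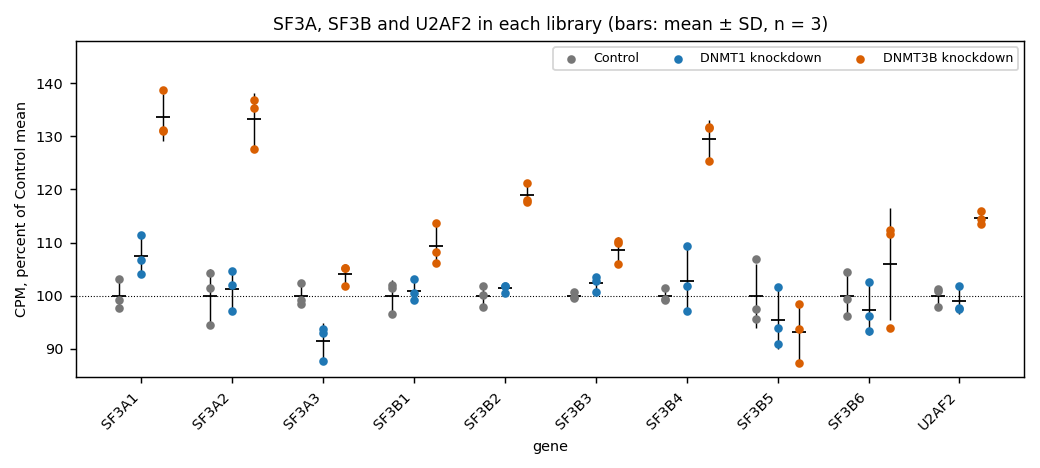
CPM of each library as a percent of the gene's Control mean for SF3A genes, SF3B genes and U2AF2, by group, with bars at mean ± SD (n = 3). The DNMT3B knockdown libraries of SF3A1, SF3A2, SF3B2 and SF3B4 all sit above every library of the other groups, and the mean of SF3A1 is 134% of Control.

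U2AF2 encodes the large subunit of the factor that marks the end of the intron. It was at 301, 311 and 310.1 CPM in Control, 299.9, 299.6 and 313 with DNMT1 knockdown, and 349, 352 and 356 with DNMT3B knockdown. It rose to 115% of Control with DNMT3B knockdown (log2 fold change 0.20 ± 0.032, adjusted p = 6.52e-06), and its DNMT1 knockdown libraries overlapped Control (adjusted p = 0.76). Its partner U2AF1 could not be read in these files. It had 280 counts over the 9 libraries, and 93.9% of its stretches of 50 bases also occur in other transcripts, of U2AF1L5 and AC021231.2. LOC102724594, counted beside it as a near-identical copy, had 275, and the stretches shared with that entry were not computed. The U2AF1 values, 1.32 ± 0.0737 CPM in Control, 1.10 ± 0.0587 with DNMT1 knockdown and 1.15 ± 0.135 with DNMT3B knockdown (SD, n = 3), therefore describe this counting, not the gene's level. U2AF1L4, a shorter relative of U2AF1, was at 5.01, 5.7 and 5.78 CPM in Control, 5.61, 6.48 and 6.4 with DNMT1 knockdown, and 6.3, 6.79 and 6.55 with DNMT3B knockdown. It rose to 119% with DNMT3B knockdown (adjusted p = 0.0317), but 67.8% of its exon bases overlap other genes, and the call was lost without Control replicate 1 (adjusted p = 0.156) or DNMT3B knockdown replicate 2 (0.0763) or 3 (0.0722).

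Among the SR proteins, 9 of 12 fell with DNMT1 knockdown and none rose. The 9 were SRSF1 to SRSF9, at 85.2 to 92.8% of Control; the others had adjusted p = 0.0698 (SRSF10), 0.0513 (SRSF11) and 0.508 (SRSF12, under 1 CPM). SRSF9, which binds purine-rich exonic enhancers, was at 95.2, 92 and 99.7 CPM in Control, 77.9, 88 and 78.7 with DNMT1 knockdown, and 74.4, 81.2 and 83.8 with DNMT3B knockdown. It fell by 0.23 ± 0.045 (SE, log2, adjusted p = 0.000112) and by 0.26 ± 0.046 (adjusted p = 1.62e-05), with both knockdowns below every Control library. Counting without strand could mix in GATC, whose exons overlap 41.2% of those of SRSF9; GATC itself had adjusted p = 0.622 and 0.63.

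SRSF8, a retrogene-derived SR protein, had the largest SRSF fall with DNMT3B knockdown. Its levels were 74.6, 70.6 and 76.1 CPM in Control, 66, 64.5 and 61.3 with DNMT1 knockdown, and 54.2, 64.2 and 56.8 with DNMT3B knockdown. It fell by 0.21 ± 0.047 (adjusted p = 0.000566) and by 0.34 ± 0.048 (adjusted p = 4.02e-07). SRSF3, the smallest SR protein, which controls its own poison exon, was at 393, 369.5 and 385 CPM in Control, 349, 335 and 329 with DNMT1 knockdown, and 327, 344 and 336 with DNMT3B knockdown. Both knockdowns were below Control in every library, at 88.2% (adjusted p = 7.08e-05) and 87.7% (adjusted p = 2.74e-05). SRSF4, one of the larger SR proteins, was at 122, 129 and 121 CPM in Control, 109, 109 and 111 with DNMT1 knockdown, and 121, 119 and 116 with DNMT3B knockdown. It fell to 88.4% in the DNMT1 group (adjusted p = 0.000148) and stood at 95.7% with DNMT3B knockdown (adjusted p = 0.146).

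SRSF5 was the 1 SR gene called in opposite directions. It was at 86.5, 86.4 and 83.9 CPM in Control, 77.8, 72.8 and 76.7 with DNMT1 knockdown, and 91.1, 97.4 and 88.3 with DNMT3B knockdown. The 3 groups did not overlap. With DNMT1 knockdown it fell to 88.6% of Control (adjusted p = 0.000647), and it rose to 108% with DNMT3B knockdown (adjusted p = 0.0283). The rise was lost under DESeq2 (0.0677) and without Control replicate 3 (0.0927) or DNMT3B knockdown replicate 2 (0.172). SRSF1, the founding SR protein, and SRSF6 fell in both knockdowns, to 92.4 and 93.7% of Control (SRSF1) and 89.6 and 93.8% (SRSF6). Neither was called with DNMT3B knockdown once Control replicate 1 or DNMT3B knockdown replicate 1 or 3 was left out, nor SRSF1 without Control replicate 2. SRSF2 and SRSF7 fell with DNMT1 knockdown, to 92.7 and 92.8%, and were at 102% and 100% with DNMT3B knockdown (adjusted p = 0.572 and 0.973). MFSD11, whose exons overlap 34.7% of those of SRSF2, itself fell with DNMT1 knockdown (log2 fold change -0.20, adjusted p = 0.00936) and with DNMT3B knockdown (-0.27, adjusted p = 0.000488), and its part in the SRSF2 value was not tested. SRSF7 lost its call without Control replicate 3, DNMT1 knockdown replicate 2 or DNMT1 knockdown replicate 3.

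**Figure D3:**
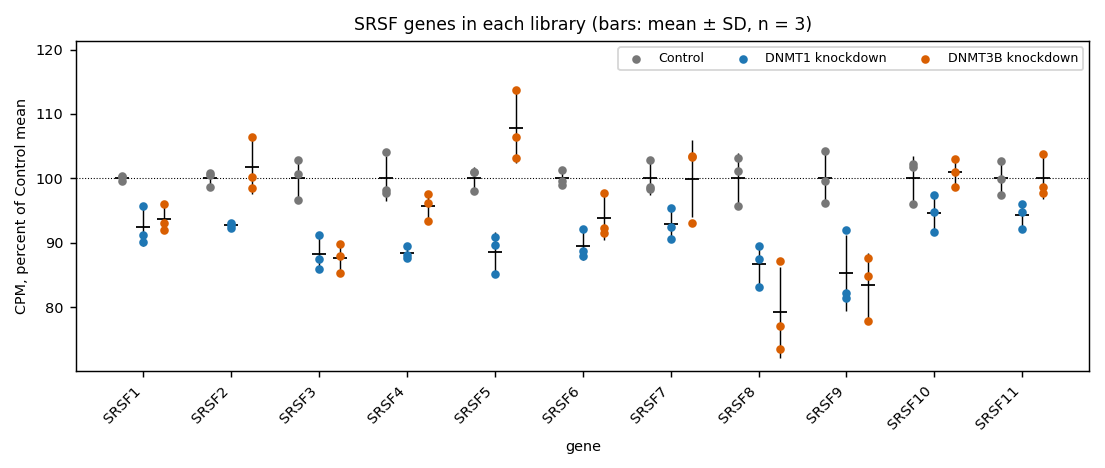
CPM of each library as a percent of the gene's Control mean for SRSF1 to SRSF11, with bars at mean ± SD (n = 3); SRSF12, under 1 CPM, is not drawn. The DNMT1 knockdown means of SRSF1 to SRSF9 lie at 85.2 to 92.8%, and the mean of SRSF5 is 108% with DNMT3B knockdown.

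Of the 22 HNRNP genes tested, 2 rose and 8 fell with DNMT1 knockdown (9.09% and 36.4%, beside 21% and 20.8% of all genes, or 23.1% and 31.6% at 50 CPM or more). With DNMT3B knockdown 6 rose and 6 fell, 27.3% each way, which is near the 23.1% and 24.6% of all genes. HNRNPA2B1, which binds and sorts RNA and promotes exon skipping, was at 519, 562 and 552 CPM in Control, 453, 461 and 458 with DNMT1 knockdown, and 469.9, 509 and 505 with DNMT3B knockdown. It had the largest fall with DNMT1 knockdown (84.1% of Control, log2 fold change -0.25 ± 0.036, adjusted p = 1.07e-06) and also fell with DNMT3B knockdown (90.9%, adjusted p = 0.00194). HNRNPM, a regulator of alternative exons, was at 340.2, 325 and 337 CPM in Control, 295, 279 and 281 with DNMT1 knockdown, and 303, 337 and 311 with DNMT3B knockdown. It fell to 85.3% with DNMT1 knockdown (adjusted p = 6.66e-06), whereas its DNMT3B knockdown libraries overlapped Control (adjusted p = 0.0834).

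The other falls with DNMT1 knockdown were HNRNPAB (88.5% of Control, adjusted p = 4.1e-05), HNRNPL (90.4%, 0.000611), HNRNPF (91.1%, 0.000897), HNRNPK (91.6%, 0.00329), HNRNPU (92.2%, 0.00416) and HNRNPH3 (93.1%, 0.0407). HNRNPL binds CA repeats and HNRNPF binds G-rich tracts. HNRNPF and HNRNPU, the nuclear scaffold factor, also fell with DNMT3B knockdown, to 91.6 and 92.6%, the HNRNPU call there being lost without Control replicate 2. HNRNPH3 was called least firmly and lost its call without Control replicate 2, Control replicate 3 or any 1 of the DNMT1 knockdown libraries.

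HNRNPA0, a member of the A/B group that binds AU-rich elements, had the largest HNRNP fall with DNMT3B knockdown. It was at 197, 193 and 202 CPM in Control, 189, 196 and 191 with DNMT1 knockdown, and 154, 156 and 160.0 with DNMT3B knockdown. The DNMT3B knockdown libraries were below all others (79.4% of Control, log2 fold change -0.33 ± 0.034, adjusted p = 1e-09), and Control and DNMT1 knockdown overlapped (adjusted p = 0.391). HNRNPLL, known for its role in CD45 splicing in T cells, was at 43, 42.5 and 41.4 CPM in Control, 47.1, 46.6 and 46 with DNMT1 knockdown, and 35.7, 41 and 38.9 with DNMT3B knockdown. It rose to 110.1% with DNMT1 knockdown (adjusted p = 0.0149) and fell to 91.1% with DNMT3B knockdown (adjusted p = 0.0163). Neither call was firm: the first was lost without Control replicate 3 (adjusted p = 0.0574), the second without Control replicate 1 (0.0645) or DNMT3B knockdown replicate 1 (0.198). HNRNPR, which also fell with DNMT3B knockdown, was at 93.6% of Control (adjusted p = 0.0175), a call lost without Control replicate 2 or DNMT3B knockdown replicate 1 or 3.

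HNRNPD and HNRNPDL, the AUF1 family of AU-rich element binders, rose with DNMT3B knockdown. HNRNPDL was at 177, 181 and 172 CPM in Control, 184, 180.2 and 180.4 with DNMT1 knockdown, and 199.5, 212 and 201 with DNMT3B knockdown (116%, log2 fold change 0.21 ± 0.034, adjusted p = 6.24e-06). HNRNPD was at 239.8, 264 and 256 CPM in Control, 261, 257 and 269 with DNMT1 knockdown, and 282, 288 and 285 with DNMT3B knockdown (113%, adjusted p = 0.000134). Both DNMT3B knockdown groups were clear of Control. HNRNPA1, a major exon-skipping factor, was at 853, 917 and 873 CPM in Control, 879, 915 and 886 with DNMT1 knockdown, and 927, 1045 and 927 with DNMT3B knockdown (109.7%, adjusted p = 0.0054). HNRNPA3, a close relative, rose to 106% (adjusted p = 0.0468), with overlapping libraries, and lost its call without Control replicate 1 or 3 or DNMT3B knockdown replicate 2 or 3.

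Copies of HNRNPA1 are uncertain. HNRNPA1L3 has the pseudogene name HNRNPA1P48 in GENCODE 29, although its symbol here passed the rule. HNRNPA1L3 shares 49.2% of its stretches of 50 bases with other transcripts, HNRNPA1L2 58.5% and HNRNPA1 28.8%, so the counting could split their reads. HNRNPA1L3 was at 4.68, 5.18 and 4.69 CPM in Control, 5.12, 6.27 and 5.94 with DNMT1 knockdown, and 6.22, 6.57 and 6.93 with DNMT3B knockdown. It rose in both knockdowns (adjusted p = 0.0443 and 0.000451), the first with overlapping libraries and lost without any of 4 single libraries (Control 1 and 3, DNMT1 knockdown 2 and 3; adjusted p up to 0.187). HNRNPA1L2 was at 12.6, 13.6 and 13.4 CPM in Control, 14.7, 13.6 and 13.3 with DNMT1 knockdown, and 14.3, 15.7 and 14.5 with DNMT3B knockdown (adjusted p = 0.0422). That call was lost without Control replicate 1 or 3 or DNMT3B knockdown replicate 2 or 3. HNRNPH2 had 82 counts in all and shares exon bases with the readthrough RPL36A-HNRNPH2, so its values carry no weight.

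**Figure D4:**
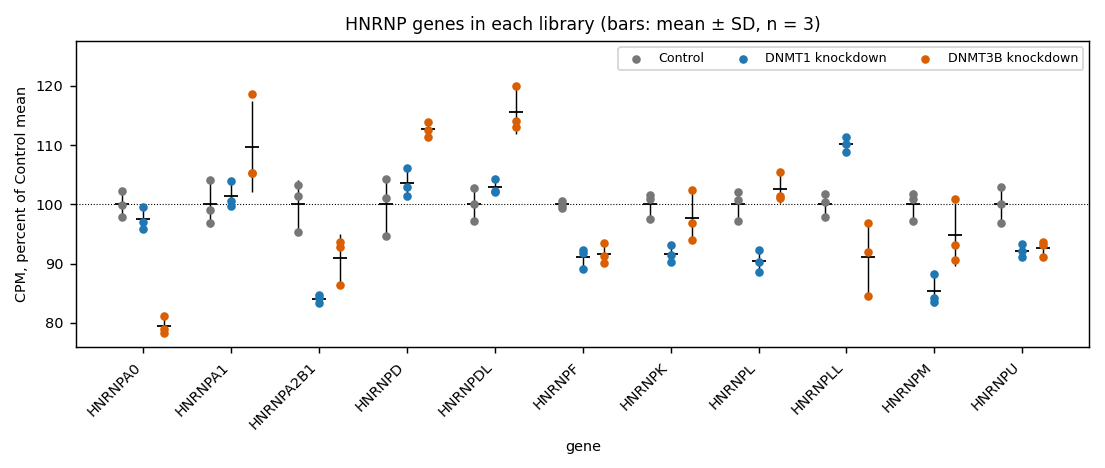
CPM of each library as a percent of the gene's Control mean for 11 HNRNP genes, with bars at mean ± SD (n = 3). HNRNPA0 falls to 79.4% of Control with DNMT3B knockdown, and HNRNPA2B1 to 84.1% with DNMT1 knockdown.

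Setting the knockdowns against each other tests the difference between them. With DNMT1 minus DNMT3B knockdown, 3 members were higher and 25 lower, beside 24.3% and 20.9% of all genes tested (45.2% in either direction), and 2 and 25 of the 38 members at 50 CPM or more, beside 31.1% and 30.1% of the 5250 genes (61.2% in either direction). The groups did not overlap for 4 members higher and 25 lower, beside 27.7% and 24.5% of all genes. The median was -0.10, against 0.00 for all genes. All 3 SF3A genes were lower with DNMT1 knockdown, as were SF3B1 to SF3B4, U2AF2, 6 SRSF genes (SRSF2, SRSF4, SRSF5, SRSF7, SRSF10 and SRSF11) and 11 HNRNP genes (HNRNPA1, HNRNPA2B1, HNRNPA3, HNRNPAB, HNRNPD, HNRNPDL, HNRNPH3, HNRNPK, HNRNPL, HNRNPM and HNRNPUL1). HNRNPA1, HNRNPA2B1, HNRNPH3, HNRNPK, HNRNPUL1, SRSF7, SRSF10 and SRSF11 each lost this call in at least 1 fit that left out a library. The largest were SF3A2 (-0.40 ± 0.038, adjusted p = 3.6e-10), SF3B4 (-0.33 ± 0.037, 7.27e-09), SF3A1 (-0.32 ± 0.035, 7.31e-09), SRSF5 (-0.28 ± 0.041, 1.05e-06) and SF3B2 (-0.23 ± 0.032, 4.47e-07), each on the log2 scale with its SE. SF3B3 was lower by a small amount (log2 fold change -0.09, adjusted p = 0.027), lost without DNMT1 knockdown replicate 2 or 3 or DNMT3B knockdown replicate 1. The 3 higher were HNRNPA0 (0.29 ± 0.034, adjusted p = 1.43e-08), HNRNPLL (0.28 ± 0.048, 1.75e-05) and SRSF8 (0.14 ± 0.049, 0.0231). The SRSF8 call was lost without replicate 1 or 2 of the DNMT1 knockdown or replicate 1 or 3 of the DNMT3B knockdown. SF3B6 was not called (log2 fold change -0.12, adjusted p = 0.083), but without DNMT3B knockdown replicate 1 its difference was -0.20 (adjusted p = 0.0019).

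Levels of different genes were compared roughly, per kilobase of exon. The length was that of each gene's annotated exons merged, which can exceed the transcript that is expressed, so the ranking is approximate. HNRNPK (263 CPM per kb in Control), HNRNPA1 (206), HNRNPL (205) and HNRNPAB (196) led. SRSF1 was the highest SR gene (157 CPM per kb), and SF3B2 the highest of the SF3 genes (137). SF3A3 was the lowest of the SF3 genes, at 42.2 CPM per kb. The places of SRSF1 and HNRNPL are uncertain, since 62.1% and 22.3% of their exon bases overlap other annotated genes and 58.5% and 32.3% of their 50-base stretches occur in other transcripts, as do 28.8% of those of HNRNPA1 and 13.3% of those of HNRNPK. HNRNPA1 and HNRNPL differ by less than the spread of HNRNPA1 between Control libraries.

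Windows of 300 bases around the start (250 before, 50 after) were in the table for 46 of the 51 members. They held a median of 29.5 CpG, against 14 in all 27305 windows and 25 in the 12705 of tested genes. The ETS core CCGGAAG, on either strand, was in 12 of the 46 (26.1%), against 10.7% of all windows and 17.2% of those of tested genes. It was in 3 of 3 SF3A, 3 of 5 SF3B, 1 of 3 U2AF, 2 of 11 SRSF and 3 of 24 HNRNP windows. CCAAT was in 19 of 46 members (41.3%), against 35.7% of all windows and 36.1% of those of tested genes. By family it was in 16 of 24 HNRNP, 2 of 11 SRSF, 0 of 3 SF3A, 1 of 5 SF3B and 0 of 3 U2AF windows. Of the 12 members with a window that rose with DNMT3B knockdown, 7 held the ETS core and 1 held CCAAT, and of the 11 that fell, 2 held the ETS core and 8 held CCAAT. Among the 19 not called, 3 held the first and 7 the second. The same shares for all genes that rose or fell were not computed, so this split has no background beside it. Motifs and calls both differed by family, and motif and family were not separated. The GC box GGGCGG, on either strand, was in 65.2% of member windows, beside 44.6% of all windows and 66.3% of those of tested genes. Exact consensus matches on either strand were rare. The CGCG element was in 2 members (4.35%, against 0.469% of all windows and 0.764% of those of tested genes) and YY1 in 1 (2.17%, against 1.28% and 2.42%). NRF1 was in 0 members (against 1.36% and 2.09%) and CRE in 0 (against 1.98% and 2.99%). These are matches of letters, found after the calls were known, and no binding was measured.

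**Figure D5:**
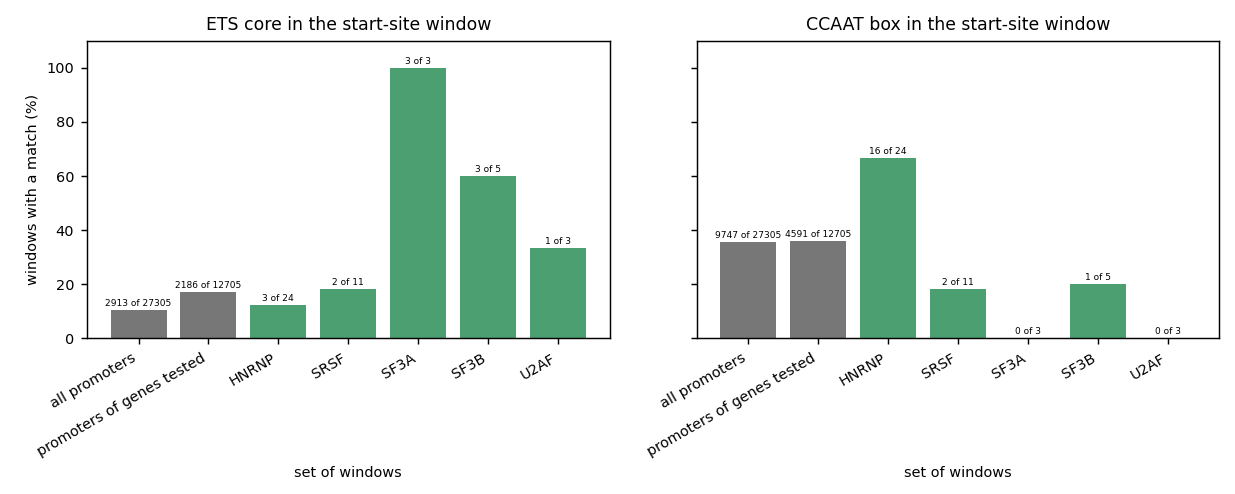
Percent of start-site windows (300 bases) that hold the ETS core or the CCAAT box on either strand, for all windows, those of tested genes (grey) and each family (green), with counts above the bars. The ETS core is in 3 of 3 SF3A windows and 3 of 24 HNRNP windows, and CCAAT in 0 and 16.

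Other splicing genes, from 9 lists of 147 genes of which 145 were tested, gave 11 rises and 47 falls with DNMT1 knockdown, 7.59% and 32.4% of those tested. The share that fell was above the 20.8% of all genes but near the 31.6% of genes at 50 CPM or more, and the share that rose was below both backgrounds (21% and 23.1%). With DNMT3B knockdown 50 rose and 30 fell (34.5% and 20.7%), beside 23.1% and 24.6% of all genes and 26.6% and 34.7% of genes at 50 CPM or more. In the direct comparison 17 were higher with DNMT1 knockdown and 65 lower (11.7% and 44.8%), beside 24.3% and 20.9% of all genes and 31.1% and 30.1% at 50 CPM or more. With DNMT3B knockdown, 10 of 22 U4/U6.U5 tri-snRNP genes, 8 of 17 SR-related proteins and SR protein kinases, and 5 of 13 U2-associated genes rose, and 4, 1 and 3 fell. Of 31 other splicing regulators 9 rose and 10 fell, of 15 exon junction and decay genes 3 and 6, and of 19 PRP19 and catalytic step genes 8 and 4. Of 13 U1 and Sm core genes 2 rose and 2 fell, of 8 minor spliceosome genes 3 and 0, and of 7 hnRNP proteins under other symbols 2 and 0. PRPF3, a tri-snRNP protein, was at 109.8, 116 and 112 CPM in Control, 106, 108 and 107 with DNMT1 knockdown, and 174, 170.3 and 169.5 with DNMT3B knockdown (log2 fold change 0.61 ± 0.034, adjusted p = 8.25e-16). SNRNP200, the helicase that unwinds U4 from U6, was at 762 ± 12.6 CPM in Control, 718 ± 6.01 with DNMT1 knockdown and 1007 ± 37.7 with DNMT3B knockdown (SD, n = 3), 132% of Control in the last. LSM6, of the U6 ring, moved the other way, from 17.1 ± 2.19 to 8.65 ± 0.448 CPM with DNMT3B knockdown (adjusted p = 1.33e-11), and TIA1, a U1-recruiting regulator, from 92.4 ± 0.585 to 61.3 ± 0.669 CPM (adjusted p = 1.71e-14). Neither was called with DNMT1 knockdown.

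With DNMT1 knockdown, 9 of 22 tri-snRNP genes, 8 of 19 PRP19 and catalytic step genes and 7 of 13 U2-associated genes fell and none rose. The remaining lists all held rises. Of 31 other splicing regulators 3 rose and 10 fell, of 17 SR-related proteins and kinases 2 and 4, and of 15 exon junction and decay genes 2 and 4. Of 13 U1 and Sm core genes 1 rose and 3 fell, of 8 minor spliceosome genes 1 and 1, and of 7 hnRNP proteins under other symbols 2 and 1. Of all genes tested 21% rose and 20.8% fell, and of those at 50 CPM or more 23.1% and 31.6%. ISY1, of the catalytic spliceosome, fell from 21.4 ± 0.696 to 16.5 ± 1.02 CPM (adjusted p = 9.84e-06), and EIF4A3, the exon junction complex helicase, from 219 ± 13.6 to 171 ± 6.56 CPM (adjusted p = 1.24e-07). Both also fell with DNMT3B knockdown, with libraries that overlapped Control, to 90.2% (ISY1, adjusted p = 0.0332) and 88.3% of Control (EIF4A3, adjusted p = 0.00108). MBNL2, a muscleblind-family regulator of alternative exons, rose in both knockdowns, from 55.3 ± 0.217 CPM to 81.6 ± 1.32 and 89.8 ± 0.729 (SD, n = 3). KHDRBS3, a STAR-family RNA-binding protein, rose from 8.20 ± 0.777 to 10.0 ± 0.663 CPM with DNMT1 knockdown (adjusted p = 0.00444; 0.078 after thinning all libraries to the same total). It also rose with DNMT3B knockdown, to 9.83 ± 0.401 CPM (adjusted p = 0.00778).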

How the data were processed

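Raw read counts per gene symbol, as deposited by the authors, were used unscaled. The tools named are STAR, featureCounts and DESeq2 on GRCh38 (hg38), per the submitters' processing notes. No version, annotation or strand setting is given there, so overlapping and near-identical genes are uncertain. Groups came from the labels. The 16660 of 25886 genes that passed filterByExpr were scaled by TMM and fitted in R 4.3.3 with edgeR 4.0.16 (quasi-likelihood, all 9 libraries, 6 residual and 25.4 prior degrees of freedom), and p was adjusted over all of them by Benjamini-Hochberg, with calls below 0.05. Unless stated, every adjusted p is from that fit. Levels are CPM, mean ± SD, and log2 fold changes carry their SE. The named genes were all SF3A, SF3B and U2AF genes, the 6 largest called changes per direction of SRSF and HNRNP genes against Control (5 in the direct comparison), and 2 per direction of other splicing genes; members beyond these were named after their values were seen, to account for every call. Members and lists were chosen with earlier results of these data known. Gene coordinates are from RefSeq, exon lengths, exon overlaps and shared 50-base stretches from GENCODE 29, and start-site sequences from RefSeq (GRCh38.p14). Alternatives were DESeq2 1.42.0, limma-voom (limma 3.58.1), other scalings and filters, fits of the compared groups, a replicate block and leaving out each library.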

Additional observations from a re-analysis of the deposited data

How the results depend on the processing

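Counts of members called were close under most alternatives. The exceptions were the rises with DNMT1 knockdown and the falls with DNMT3B knockdown. The rises were 3 in the fit reported, 1 under DESeq2 and 1 after thinning every library to the smallest total (chosen after seeing the data). They were also 1 without Control replicate 1 or without DNMT1 knockdown replicate 3, and 0 without Control replicate 3. The falls were 11 in the fit reported but 7 without DNMT3B knockdown replicate 1. The cause was not tested. DESeq2 did not call HNRNPA1L3, HNRNPH3 and HNRNPLL with DNMT1 knockdown, or HNRNPH3, SRSF11 and SRSF8 in the direct comparison. With DNMT3B knockdown it did not call HNRNPA1L2, HNRNPA3, SRSF5 and U2AF1L4, leaving 11 rises in place of 15. Without the filter on low counts, HNRNPA1L3 lost its call with DNMT1 knockdown and SRSF11 in the direct comparison. HNRNPA1L2, HNRNPA3 and SRSF5 lost theirs with DNMT3B knockdown. Leaving out each library in turn gave 0 to 3 rises and 15 to 19 falls with DNMT1 knockdown, 11 to 16 rises and 7 to 13 falls with DNMT3B knockdown, and 2 to 3 higher and 18 to 25 lower in the direct comparison. The targeted genes' log2 fold changes ranged from -0.88 to -0.85 (DNMT1) and from -1.05 to -0.95 (DNMT3B). Of 1296 comparisons of a named gene's value with an alternative, 1239 kept direction and side of the threshold, 42 lost the call, 7 gained one and 8 changed sign, 0 of them in a called value. The sign changes all came from leaving out a library and concern uncalled values. Over those fits the log2 fold change with DNMT1 knockdown ran from -0.019 to 0.051 for SF3A2 (below 0 without Control replicate 1 or DNMT1 knockdown replicate 3, at -0.0054 in the latter), from -0.0081 to 0.030 for SF3B1 (below 0 without Control replicate 3), from -0.0065 to 0.082 for SF3B4 (below 0 without DNMT1 knockdown replicate 3) and from -0.034 to 0.00041 for U2AF2 (above 0 without DNMT1 knockdown replicate 2). In the direct comparison it ran from -0.0071 to 0.075 for SF3B5 (below 0 without replicate 1 of either knockdown, at -0.0060 for DNMT3B) and from -0.13 to 0.035 for U2AF1 (above 0 without DNMT3B knockdown replicate 1). With the replicate block, 3 members rose and 18 fell with DNMT1 knockdown, 14 and 11 with DNMT3B knockdown, and 3 were higher and 24 lower in the direct comparison. The numbers do not pair the samples: same-numbered libraries of different groups had deviations correlated at -0.37 to 0.45, and others at -0.52 to 0.47. Depth limits SRSF12, which had few counts.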
